A study of Mus musculus with 40 samples.

Results

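The 10 genes described here are Nfat5, which encodes the osmotic response factor NFAT5 (also called TonEBP), 4 of its osmoprotective targets (Akr1b3, Slc5a3, Slc6a6 and Hspa4l), the 4 calcineurin-dependent NFAT genes (Nfatc1, Nfatc2, Nfatc3 and Nfatc4) and Ppp3ca, a catalytic subunit gene of calcineurin. They were chosen by symbol, from what they are known to do, but with earlier results of these data known. They are 10 of the 55414 genes in the deposited table. The study asked how the CREB-family factors ATF1, CREB1 and CREM bear on vasopressin-driven transcription of the water channel gene Aqp2 in mpkCCD cells, a mouse collecting duct line that was immortalized and keeps principal cell features. RNA-seq libraries of unmodified control clones were set beside libraries labelled ATF1-KO, ATF1/CREB1-KO (called double-labelled below) and ATF1/CREB1/CREM-KO (triple-labelled). All cells were polarized on permeable supports in a medium containing dexamethasone and received the vasopressin analogue dDAVP at 0.1 nM for 72 hours, so no library came from unstimulated cells, and the labels name no change in osmolality. The 22 libraries fall into 3 runs of consecutive library numbers, which the labels do not call batches. Run 1 has control clones 1 to 5 and 5 ATF1-KO libraries, run 2 has control clones 6 to 8 and 3 double-labelled libraries, and run 3 has control clones 9 to 11 and 3 triple-labelled libraries. Each knockout label was compared with the control clones of its own run. Whether the replicates under 1 knockout label came from different clones or from cultures of 1 clone is not stated in the labels, so the p-values measure the spread between these libraries, which may be technical. The 18 rescue samples that the labels also list were not analysed here.

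NFAT5 is activated when cells meet a hypertonic medium, as collecting duct cells do in the kidney medulla. It binds tonicity-responsive enhancers and raises genes that load the cell with compatible osmolytes: aldose reductase for sorbitol, and transporters for myo-inositol, taurine and betaine. Its relatives NFATc1 to NFATc4 are held in the cytoplasm by phosphorylation and enter the nucleus when calcium and calmodulin activate the phosphatase calcineurin, whereas NFAT5 lacks the calcineurin docking region. Both branches have been linked to Aqp2 transcription in collecting duct cells, beside the cAMP pathway on which CREB-family factors act.

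The promoters bear on the comparison because CREB-family factors and NFAT factors bind short motifs, which were searched in RefSeq promoter windows of 300 bases (250 before to 50 after a start site, build GRCm38.p6). A window was held for 6 of the 10 genes, 8 windows in all, and for Aqp2. Searched on both strands were the CRE palindrome TGACGTCA, the CRE half-site TGACG that it contains, the NFAT core GGAAA, and the tonicity-responsive enhancer (TonE) consensus, which itself contains an NFAT core. The 250 bases before the start are shown for Aqp2, for Nfat5 and for the first of a pair of Nfatc2 windows, the only one of the 8 member windows with a TonE match. They are written 5′ to 3′ on the gene's strand, and capitals mark a CRE half-site, an NFAT core or a TonE match, or its complement.
Aqp2 (chr15:99578806-99579055, plus strand): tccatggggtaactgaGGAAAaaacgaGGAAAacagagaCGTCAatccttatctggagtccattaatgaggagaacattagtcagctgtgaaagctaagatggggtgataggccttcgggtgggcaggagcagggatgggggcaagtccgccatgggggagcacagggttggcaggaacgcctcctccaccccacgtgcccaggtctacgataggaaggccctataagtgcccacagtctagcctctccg
Nfat5 (chr8:107293220-107293469, plus strand): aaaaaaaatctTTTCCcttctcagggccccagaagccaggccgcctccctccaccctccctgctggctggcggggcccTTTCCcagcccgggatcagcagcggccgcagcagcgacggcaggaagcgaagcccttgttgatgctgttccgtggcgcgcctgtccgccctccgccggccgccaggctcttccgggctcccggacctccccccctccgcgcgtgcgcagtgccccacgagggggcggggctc
Nfatc2 (chr2:168601658-168601907, minus strand): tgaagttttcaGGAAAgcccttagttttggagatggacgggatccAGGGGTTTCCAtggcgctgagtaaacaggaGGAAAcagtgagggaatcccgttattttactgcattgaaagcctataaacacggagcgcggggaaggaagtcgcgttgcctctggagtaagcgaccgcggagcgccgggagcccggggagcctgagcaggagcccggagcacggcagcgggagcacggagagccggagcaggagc
The Aqp2 window held NFAT cores at -234 and -223 and a CRE half-site at -211, counted from the start site. Nfat5 had NFAT cores at -239 and -172, and its CRE half-site lay at 36 bases after the start, outside the stretch shown. In Nfatc2, the TonE match lay at -205 and took in 1 of the 3 NFAT cores of that window. None of the 8 member windows held the CRE palindrome, which was in 1.79% of all 32851 windows. The CRE half-site was in 3 of the 8 (Nfat5, Hspa4l and the first Nfatc3 window) and in 20.8% of all windows, and the NFAT core was in 6 of the 8 and in 61.3% of all. TonE matches were in 4.96% of all windows. The Slc5a3 window held none of these motifs. A match is a run of letters and not a measured binding site.

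Of the targeted genes, Creb1 was at 18.2 to 19.4 TPM in the triple-labelled libraries and at 35.9 to 39.0 TPM in control clones 9 to 11, and at 2.72 to 3.86 TPM in the double-labelled libraries against 4.98 to 6.69 TPM in control clones 6 to 8. Atf1 was at 17.5 to 37.8 TPM in the ATF1-KO libraries against 37.8 to 49.0 TPM, while in the triple-labelled libraries 1 of 3, at 40.8 TPM, was above all 3 own-run control clones. Crem RNA was higher, not lower, in all 3 triple-labelled libraries (26.0 to 33.8 TPM against 20.0 to 24.9 TPM). The labels do not say which exons were edited, so RNA levels do not test whether the protein is lost, and groups are called by their labels. In run 2, genes for 80 ribosomal proteins made up 13.9 to 14.8% of all TPM in the control clones and 12.7, 12.2 and 6.95% in double-labelled replicates 1, 2 and 3, against 2.58 to 4.02% in the other runs. The median of 13334 expressed genes in control clones 6 to 8 was 31.3% of its level in the other control clones. The double-labelled libraries were also the least alike: the median gene's SD on the log2 scale was 0.41 among them and 0.13 to 0.21 in the other 5 groups. Between 17296 and 20703 genes were above 0 in a library. TPM keeps no depth, so no counting error can be given. Principal cell markers were present (9 of 12 had a median of at least 1 TPM). Of the intercalated cell markers 1 of 6 reached that level (Atp6v1b1), as did 1 of 4 proximal tubule markers (Lrp2), none of 2 thick limb markers and 1 of 6 stromal, endothelial and blood markers (Cd68). Some of these measures moved with the labels. Mitochondrial genes made up 3.20 to 4.31% of all TPM in the double-labelled libraries against 2.08 to 2.33% in their control clones, and 2.06 to 2.63% in the triple-labelled libraries against 1.21 to 1.42%. The summed stromal, endothelial and blood markers were at 2.55 to 3.35 TPM in the triple-labelled libraries against 5.26 to 8.29 TPM. The summed intercalated markers were at 39.3 to 46.2 TPM in the double-labelled libraries against 32.5 to 36.3 TPM. Each sum rests largely on 1 gene and does not measure cell composition. Over all libraries the median was 6.30 TPM for Cd68 and at most 0.22 TPM for the others of its set. It was 34.1 TPM for Atp6v1b1 and at most 0.565 TPM for the other intercalated markers. The part of these differences in the results was not tested. A bulk library cannot tell fewer expressing cells from less RNA per cell.

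In the 8 control clones of runs 1 and 3, 2 of the 3 osmolyte genes stood highest. Slc6a6, the taurine transporter gene, was at 191 TPM ± 43.5 (SD, n = 8) and Akr1b3, which encodes aldose reductase, at 181 TPM ± 61.5 (SD, n = 8), values that overlapped throughout. Ppp3ca followed at 81.3 TPM ± 14.3 (SD, n = 8). A middle group did not separate beyond its spread: Hspa4l, a heat shock chaperone gene, at 53.4 TPM ± 7.90 (SD, n = 8), Nfat5 at 44.1 TPM ± 8.92 (SD, n = 8), Nfatc3 at 43.7 TPM ± 4.84 (SD, n = 8) and Slc5a3, the sodium/myo-inositol cotransporter gene, at 37.5 TPM ± 7.22 (SD, n = 8). Nfatc2 was at 23.7 TPM ± 6.27 (SD, n = 8), Nfatc1 at 8.20 TPM ± 1.58 (SD, n = 8) and Nfatc4 at 2.45 TPM ± 0.810 (SD, n = 8). No library value was shared between the last 3 genes.

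Control clones 6 to 8 had another order. Nfat5 there was at 88.3% of its mean in the other control clones and Nfatc4 at 108%, while the remaining 8 genes stood between 12.0% (Hspa4l) and 42.5% (Nfatc2). The median expressed gene was at 31.3%, so Nfat5, Nfatc4 and Nfatc2 lay above the median in run 2 and Hspa4l near the bottom, at the percentile 3.58 of 13334 genes. Slc5a3 was at 19.1%, while Mrps6, a mitochondrial ribosomal protein gene whose locus overlaps Slc5a3 on the same strand in GENCODE M21, was at 197%. Reads in the shared stretch can be given to either gene, so the Slc5a3 level carries that uncertainty. Levels are therefore compared only within a run.

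**Figure D1:**
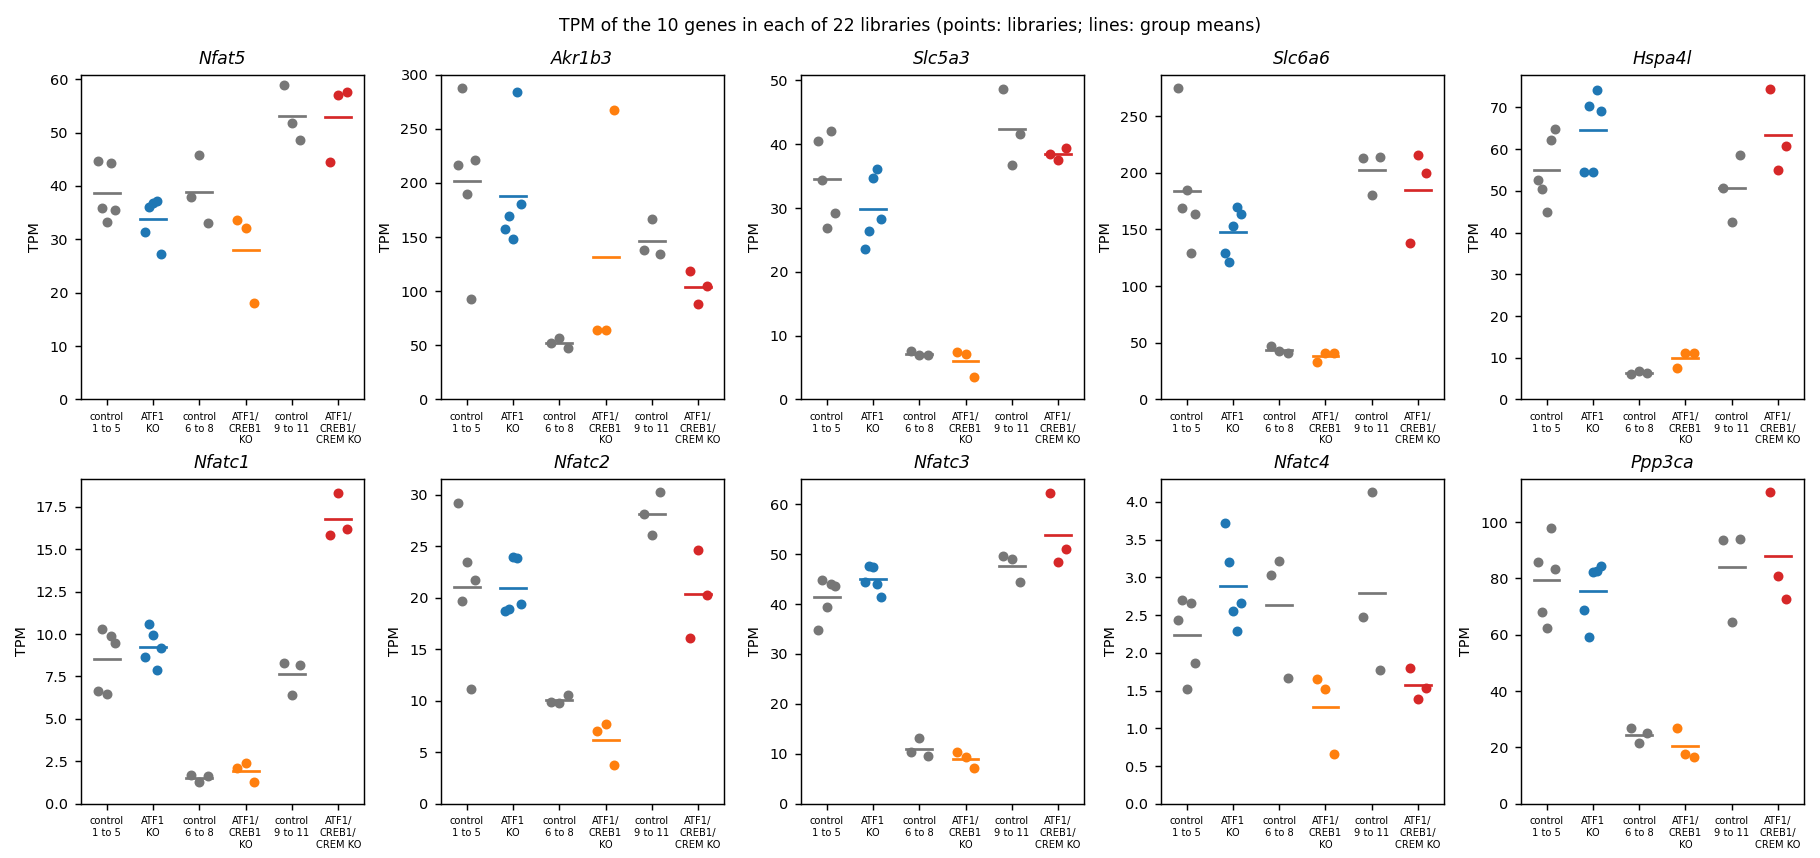
TPM (vertical axis, linear, from 0, scaled separately for each gene) of the 10 genes in the 22 libraries, by run and label; points are libraries and lines are group means. Hspa4l, Slc5a3 and Slc6a6 are low in all run 2 libraries, Nfat5 is not, and the 3 triple-labelled libraries stand above every other library for Nfatc1 (15.8 to 18.3 TPM).

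Nfat5 (ENSMUSG00000003847, chromosome 8) passed the test in none of the 3 comparisons. Control clones 1 to 5 had 44.6, 35.8, 33.2, 44.3 and 35.5 TPM, and the ATF1-KO libraries had 31.4, 36.0, 36.7, 37.2 and 27.2 TPM. The groups overlapped, with 2 of the 5 ATF1-KO libraries below all control clones, and the mean was 87.2% of the control mean. Control clones 6 to 8 had 37.8, 45.8 and 33.1 TPM against 33.7, 32.2 and 18.0 TPM in the double-labelled libraries. Replicate 3 was the low one, and the other two lay at the lower edge of the control range, for a mean of 71.9%. In control clones 9 to 11 Nfat5 was at 58.8, 51.7 and 48.5 TPM, and in the triple-labelled libraries at 44.5, 57.0 and 57.5 TPM. Here the means were 53.0 TPM in both groups, with 1 triple-labelled library below the control range and the other two within it. The limma log2 changes, on the log2(TPM + 1) scale, were -0.19 in ATF1-KO (95% interval -0.44 to 0.06, adjusted p = 0.713), -0.50 in the double-labelled libraries (-1.18 to 0.18, adjusted p = 0.623) and -0.01 in the triple-labelled ones (-0.32 to 0.31, adjusted p = 0.983). Without double-labelled replicate 3 the -0.50 shrank to -0.22 (adjusted p = 0.513). Exact two-sided permutation tests gave p = 0.167, 0.2 and 1.0, with 0.00794 the smallest possible over 252 splits in run 1 and 0.1 over 20 splits in the other runs. The change in the triple-labelled libraries minus that in the double-labelled ones was 0.49 (95% interval -0.09 to 1.08, adjusted p = 0.662 by limma). That fit shared 1 spread over all groups. Its SE of 0.279 was below the 0.288 of the double-labelled change alone, so the interval may be too narrow. A miss of the threshold does not show equal levels: the intervals leave room for a log2 fall of 0.32 in the triple-labelled libraries and of 1.18 in the double-labelled ones.

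Aqp2 was the contrast to Nfat5 in run 3. Its RNA was at 15.1, 16.1 and 15.3 TPM in the triple-labelled libraries and at 1627, 641 and 2279 TPM in control clones 9 to 11, a fall of 6.34 on the log2 scale (SE 0.43, adjusted p = 0.000860 by limma). In the double-labelled libraries Aqp2 was at 637, 492 and 508 TPM, within the range of 379 to 1029 TPM in control clones 6 to 8 (log2 change -0.36, adjusted p = 0.775). In the same 3 triple-labelled libraries, 2 of the Nfat5 values lay inside the control range and 1 below it.

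Among the osmolyte targets of NFAT5, Akr1b3 (chromosome 6) varied most from library to library. Control clones 1 to 5 had 216, 288, 189.6, 92.8 and 222 TPM and the ATF1-KO libraries 158, 169, 148, 284 and 181 TPM, groups that overlapped throughout (log2 change -0.05, adjusted p = 0.970). Control clones 6 to 8 had 51.8, 56.9 and 47.2 TPM against 64.5, 63.7 and 267 TPM in the double-labelled libraries. All 3 were above the control clones, but replicate 3 was far above the other two, and the log2 change of 0.98 had an SE of 0.54 (adjusted p = 0.615) and was 0.30 without replicate 3 (adjusted p = 0.281). In run 3 the order was the opposite: 138, 167 and 134 TPM in the control clones and 118, 88.2 and 105 TPM in the triple-labelled libraries, all 3 lower, at 70.9% of the control mean. That log2 change was -0.50 (95% interval -0.82 to -0.17) with an adjusted p of 0.0726, and -0.60 with an adjusted p of 0.0158 when triple-labelled replicate 1 was left out. The difference between the double- and triple-labelled changes was -1.48 with an adjusted p of 0.495, so the opposite orders did not pass a test of their difference.

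Slc5a3 and Slc6a6, the transporter genes for myo-inositol and taurine, passed no test, and their groups overlapped except for Slc6a6 in run 2. Slc5a3 (chromosome 16) was at 48.7, 36.8 and 41.7 TPM in control clones 9 to 11 and at 38.4, 37.5 and 39.5 TPM in the triple-labelled libraries, all within the control range. Its log2 changes were -0.21, -0.27 and -0.13 in the ATF1-KO, double-labelled and triple-labelled libraries, with 95% intervals from -0.54 to 0.13, -0.90 to 0.36 and -0.41 to 0.15. In double-labelled replicate 3 Slc5a3 was at 3.51 TPM, against 7.48 and 7.09 TPM in the other two and 6.91 to 7.62 TPM in the control clones. The median gene of chromosome 16 was at -0.80 on the log2 scale against the control mean in triple-labelled replicate 1, and at -0.04 and -0.02 in replicates 2 and 3, while Slc5a3 was at -0.13, -0.16 and -0.09. In ATF1-KO replicates 1 to 5 that median was at -0.34, -0.34, 0.01, 0.01 and -0.05. Slc5a3 was at 23.65, 26.35, 34.7, 36.1 and 28.3 TPM there, against 26.8 to 42.1 TPM in control clones 1 to 5. In double-labelled replicates 1 to 3 the chromosome median was at -0.41, -0.09 and 0.15. The part of these shifts was not tested. Slc6a6 (chromosome 6) was at 213, 180.0 and 214 TPM in control clones 9 to 11 and at 138, 215 and 200.1 TPM in the triple-labelled libraries, where replicate 1 was the low one. In run 2 all 3 double-labelled libraries (33.2, 40.6 and 40.6 TPM) were below all 3 control clones (47.4, 42.4 and 40.9 TPM). Its 3 log2 changes were -0.29, -0.19 and -0.15, with adjusted p-values from limma of 0.723, 0.766 and 0.616.

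Hspa4l (chromosome 3) had a higher mean under each knockout label, and no comparison passed the test. The ATF1-KO libraries had 54.5, 70.4, 54.4, 74.2 and 69.2 TPM against 52.6, 50.5, 44.9, 62.1 and 64.7 TPM, with 3 of 5 above all control clones. On the log2 scale the median gene of chromosome 3 was at -0.22, 0.07, 0.13, 0.08 and 0.08 in these ATF1-KO libraries. In control clones 1 to 5 it was at 0.15, -0.21, -0.14, 0.10 and 0.09. The part of that shift was not tested. The double-labelled libraries had 7.51, 11.1 and 11.0 TPM against 6.02, 6.85 and 6.37 TPM, with no overlap. The triple-labelled libraries had 74.5, 54.9 and 60.7 TPM against 50.8, 42.6 and 58.7 TPM, with 2 of 3 above the control range. The log2 changes were 0.23, 0.54 and 0.32 with adjusted p-values of 0.698, 0.483 and 0.249 in limma. The 4 targets thus did not move one way: in the triple-labelled libraries the means of Akr1b3, Slc5a3 and Slc6a6 were at 70.9%, 90.8% and 91.1% of the control mean and that of Hspa4l at 125%.

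Nfatc1 (ENSMUSG00000033016, chromosome 18), which encodes a calcium-regulated transcription factor best known from heart valves and osteoclasts, was the 1 gene of the 10 that passed the test, and it did so in the triple-labelled libraries only. They had 15.8, 18.3 and 16.2 TPM, all above the 8.27, 6.38 and 8.20 TPM of control clones 9 to 11. The mean rose from 7.62 TPM ± 1.07 (SD, n = 3) to 16.8 TPM ± 1.32 (SD, n = 3), a factor of 2.20, or 1.05 on the log2(TPM + 1) scale (SE 0.14, 95% interval 0.71 to 1.39, adjusted p = 0.00961 by limma). The exact permutation p was 0.1, the smallest possible with 20 splits, and 0.4 adjusted over the 6 such tests of Nfat5 and Nfatc1. Without control clone 9 the log2 change was 1.11 and the adjusted p 0.0511; against all 11 control clones, run 2 included, it was 1.47 with an adjusted p of 0.265. In ATF1-KO, Nfatc1 was at 8.64, 10.6, 9.96, 7.87 and 9.16 TPM against 6.64, 10.3, 6.48, 9.89 and 9.48 TPM, and in the double-labelled libraries at 2.11, 2.41 and 1.26 TPM against 1.69, 1.28 and 1.63 TPM. Both pairs of groups overlapped (log2 changes 0.12 and 0.19, adjusted p = 0.859 and 0.824). The triple-labelled change exceeded the double-labelled one by 0.86 (95% interval 0.32 to 1.40), which did not pass after adjustment (adjusted p = 0.299), so the rise was not shown to differ between the labels.

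Other genes of chromosome 18 were also higher in part of these libraries. On the log2 scale the median gene of the chromosome was 0.02, 0.46 and 0.45 above the control mean in triple-labelled replicates 1, 2 and 3, against -0.06 to 0.04 in control clones 9 to 11. Nfatc1 was 0.97, 1.17 and 1.01 above the control mean in the same 3 libraries. Set against the chromosome median, the excess of Nfatc1 was 0.96, 0.71 and 0.56. In the double-labelled libraries the chromosome median was at -0.13, 0.35 and 0.31 and Nfatc1 at 0.30, 0.43 and -0.16. DNA copy number was not measured in these files, and the part of chromosome-wide shifts in the result was not tested.

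**Figure D2:**
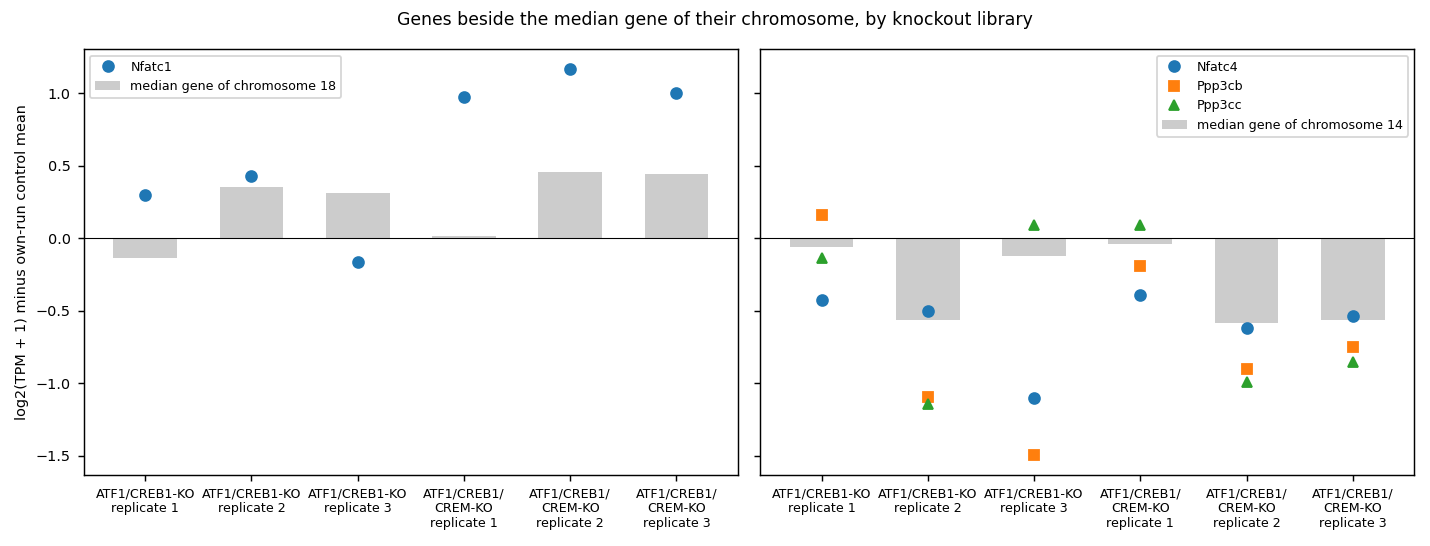
Log2(TPM + 1) minus the own-run control mean (vertical axis) in each double- and triple-labelled library; grey bars are the median gene of chromosome 18 (left) or 14 (right), and symbols are single genes. Nfatc1 lies above the bar in all 3 triple-labelled libraries (by 0.96, 0.71 and 0.56), whereas Nfatc4, Ppp3cb and Ppp3cc are all low in the 3 libraries with a low chromosome 14 bar (double-labelled replicate 2 and triple-labelled replicates 2 and 3). In double-labelled replicate 3, with the bar at -0.12, Nfatc4 (-1.10) and Ppp3cb (-1.50) are lower still. The bars are not corrected for the median of all genes, which was 0.18 in that library.

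Nfatc2 (chromosome 2), prominent in lymphocyte cytokine transcription, had lower values under both labels that include CREB1. The double-labelled libraries had 7.06, 7.78 and 3.76 TPM against 9.85, 9.78 and 10.6 TPM, and the triple-labelled libraries 16.1, 24.6 and 20.3 TPM against 28.1, 26.0 and 30.2 TPM. Neither pair of groups overlapped, at 61.6% and 72.3% of the control mean, but neither change passed the test (log2 -0.67, adjusted p = 0.491, and -0.47, adjusted p = 0.126, by limma). Without double-labelled replicate 3 the -0.67 shrank to -0.39 (adjusted p = 0.194). In ATF1-KO the means were 21.0 TPM in both groups, and control clone 4, at 11.1 TPM, was the lowest library of run 1. Nfatc3 (chromosome 8), the most abundant of the calcineurin-dependent members here, was at 62.3, 48.3 and 51.0 TPM in the triple-labelled libraries against 49.7, 48.9 and 44.4 TPM, overlapping the control clones (log2 change 0.17, adjusted p = 0.410). Its changes were 0.12 in ATF1-KO and -0.26 in the double-labelled libraries, where the libraries (7.26 to 10.4 TPM) overlapped the control clones (9.64 to 13.1 TPM). The median gene of chromosome 8, on which Nfat5 also lies, was at -0.20, 0.15, -0.14, 0.13 and 0.06 in control clones 1 to 5. It was at 0.08 to 0.15 in the ATF1-KO libraries. Nfatc3 was at 34.7, 44.9, 39.5, 44.0 and 43.55 TPM in those control clones and at 41.5 to 47.6 TPM in ATF1-KO. The part of that shift was not tested. Esrp2 overlaps Nfatc3 on the opposite strand, and the kit does not mark strand, so reads of that stretch cannot be told apart.

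Nfatc4 (chromosome 14) was between 0.660 and 4.13 TPM over the 22 libraries and was the lowest of the 10 genes in each of them except control clones 6 to 8, where Nfatc1 was lower. The double-labelled libraries had 1.65, 1.52 and 0.660 TPM, all below the 3.03, 3.22 and 1.66 TPM of their control clones and at 48.4% of their mean. Replicate 1 was at the edge of the control range and replicate 3 far below it. The triple-labelled libraries had 1.80, 1.39 and 1.53 TPM against 2.48, 4.13 and 1.77 TPM, with 1 library inside the control range. The log2 changes of -0.68 and -0.52 had SEs of 0.30 and 0.27 and adjusted p-values of 0.544 and 0.276. The median gene of chromosome 14 was at -0.04, -0.58 and -0.56 in the 3 triple-labelled libraries, and Nfatc4 at -0.39, -0.62 and -0.54. In the double-labelled libraries the chromosome was at -0.06, -0.57 and -0.12 and Nfatc4 at -0.43, -0.50 and -1.10. In replicate 3 of these the median of all genes was at 0.18, and chromosome 14 lay at -0.30 relative to it. In replicate 1 under both labels the chromosome median was near the control level. Nfatc4 was at 1.65 TPM (double-labelled) and 1.80 TPM (triple-labelled) in these, beside lowest own-run control values of 1.66 and 1.77 TPM. The part of the chromosome shifts was not tested. Ppp3ca (chromosome 3), the catalytic calcineurin subunit, was at 111, 80.9 and 72.7 TPM in the triple-labelled libraries and at 93.6, 64.6 and 94.1 TPM in control clones 9 to 11, 105% of the control mean. Its log2 changes were -0.07, -0.28 and 0.06 under the 3 labels, with the widest interval, -0.84 to 0.28, in the double-labelled libraries.

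Within the NFAT family, the share of each gene in the summed TPM of the 5 NFAT genes was computed in each library. In control clones 9 to 11 the sum itself was 139 TPM ± 7.36 (SD, n = 3), beside 146 TPM ± 4.61 (SD, n = 3) in the triple-labelled libraries. Nfat5 made up 38.0% ± 1.74 (SD, n = 3) of it in the control clones and 36.3% ± 4.10 (SD, n = 3) in the triple-labelled libraries. Nfatc1 went from between 4.65 and 6.16% to between 11.1 and 12.2%, and Nfatc2 from between 19.0 and 22.7% to between 11.5 and 16.4%. Nfatc4 went from between 1.33 and 3.01% to between 0.929 and 1.28%. For these 3 genes the shares did not overlap, although the TPM values of Nfatc4 did. Over all genes tested in run 3, TPM values did not overlap for 34.6%. The 5 shares of a library add up to the whole, so they do not move independently. In run 1 the Nfat5 share was 34.5% ± 3.92 (SD, n = 5) in the control clones and 30.1% ± 1.90 (SD, n = 5) in the ATF1-KO libraries, groups that overlapped. In run 2, Nfat5 took 60.4% ± 2.04 (SD, n = 3) in the control clones and 59.9% ± 1.61 (SD, n = 3) in the double-labelled libraries, so the family was Nfat5-rich in all 6 libraries of that run whatever the label. Nfatc1 took 1.75 to 2.88% there in the control clones and 3.84 to 4.52% in the double-labelled libraries, without overlap, although its TPM values overlapped. Over all genes tested in run 2, TPM values did not overlap for 19%. The sum there was 64.2 TPM ± 8.41 (SD, n = 3) and 46.4 TPM ± 13.4 (SD, n = 3). All 3 double-labelled sums (55.0, 53.3 and 30.9 TPM) were below the 56.6 to 73.2 TPM of the control clones. Replicate 3 was the lowest, and its Nfat5 share of 58.2% was close to the others.

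**Figure D3:**
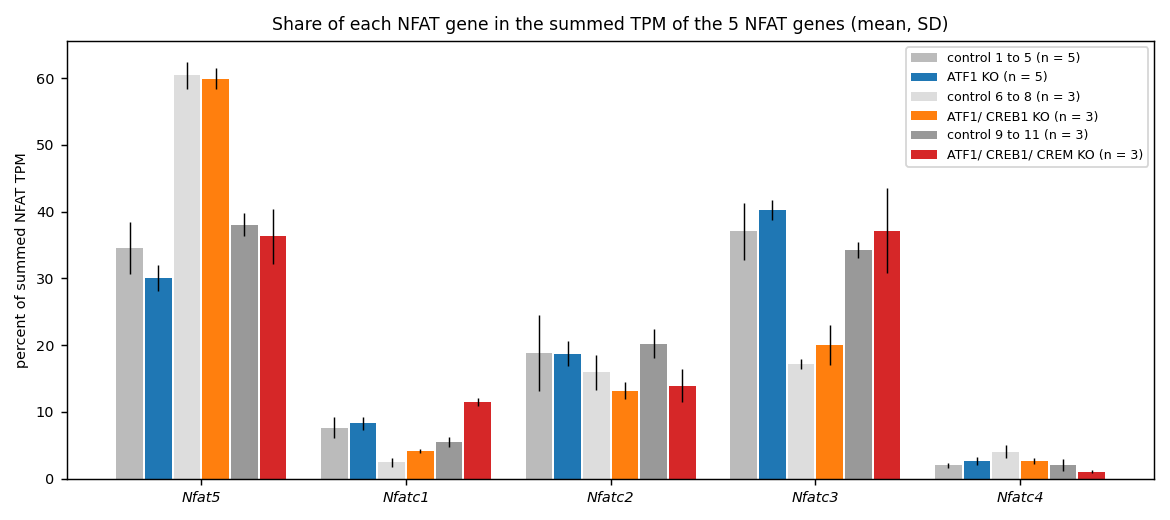
Share of each NFAT gene in the summed TPM of the 5 NFAT genes (vertical axis, percent, from 0) by run and label; bars are means and lines are SDs over the 3 or 5 libraries. Nfat5 takes about the same share in each knockout group and its own control clones of runs 2 and 3 (34.5 and 30.1% in the control clones and ATF1-KO libraries of run 1), and the Nfatc1 share is highest in the triple-labelled libraries.

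Counted over the 10 genes, none passed the test in ATF1-KO (background 0% of 13318 genes; 0 of the 10 had an unadjusted limma p under 0.05, as did 1014 of all genes, 7.61%). None passed in the double-labelled libraries (background 0.0715%, 9 of 12579 genes), where 2 had an unadjusted p under 0.05 (Hspa4l and Nfatc2; background 9.53%). In the triple-labelled libraries 1 of 10 passed, Nfatc1, in the upward direction (background 9.17% in either direction and 3.91% upward and 5.26% downward, 1216, 518 and 698 of 13258 genes), and 3 had an unadjusted p under 0.05: Nfatc1, Akr1b3 and Nfatc2 (background 27%). With 10 genes, both shares lie near the background. The groups did not overlap for 0 of 10 in ATF1-KO (background 1.3%), 5 of 10 in the double-labelled libraries (background 19%) and 3 of 10 in the triple-labelled ones (background 34.6%). The 5 in run 2 were Akr1b3 and Hspa4l, higher (background 6.67%), and Nfatc2, Nfatc4 and Slc6a6, lower (background 12.4%). The 3 in run 3 were Nfatc1, higher (background 14.5%), and Akr1b3 and Nfatc2, lower (background 20.2%). The median log2 change of the 10 genes was -0.27 in the double-labelled libraries and -0.07 in the triple-labelled ones, beside -0.03 and -0.05 over all genes tested.

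The counts over all genes depended on single libraries. The 1216 became 185, 489 and 280 without control clones 9, 10 and 11, and 3317, 343 and 406 without triple-labelled replicates 1, 2 and 3. The 9 became 5, 1 and 4 without control clones 6, 7 and 8, and 5, 0 and 60 without double-labelled replicates 1, 2 and 3. With median-ratio scaling the triple-labelled split of 518 higher and 698 lower became 685 and 606, and with quantile normalization 697 and 610, while Nfatc1 kept its call under both. Against all 11 control clones, 5 of the 10 genes passed as lower in the double-labelled libraries (Slc5a3, Slc6a6, Nfatc2, Nfatc3 and Ppp3ca, background 32.1%) and none in the triple-labelled ones (background 1.03%), a comparison that sets run 2 against the other runs. None of the 10 genes passed a test of the difference between the triple- and double-labelled changes (background 0.188%, 25 of 13295 genes), and 3 had an unadjusted p under 0.05: Akr1b3, Nfatc1 and Nfatc3 (background 8.39%). That 25 was 10, 7, 16, 9, 10 and 9 without control clones 6 to 11 in turn, 59, 45 and 27 without double-labelled replicates 1 to 3, and 32, 11 and 20 without triple-labelled replicates 1 to 3.

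**Figure D4:**
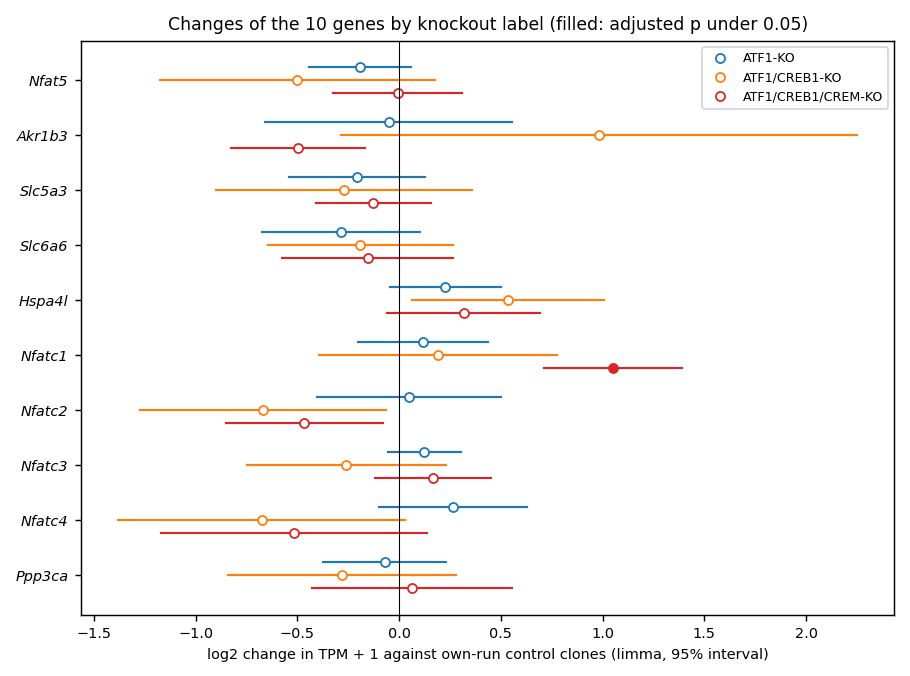
Log2 change in TPM + 1 against own-run control clones (horizontal axis) for the 10 genes under the 3 knockout labels; points are limma estimates, lines are 95% intervals, and a filled point has an adjusted p under 0.05. Nfatc1 in the triple-labelled libraries, at 1.05, is the 1 filled point, and the intervals of Nfat5 include 0 under all 3 labels.

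Other osmoprotective and NFAT5-linked genes were read from a list of 17, of which 11 were expressed enough to be tested in the triple-labelled libraries. Sgk1 rose and Aqp2 fell, and the other 9 did not pass (background 3.91% upward and 5.26% downward). Sgk1, a kinase induced by corticosteroids and by osmotic stress that acts on sodium transport, was at 760.0, 1585 and 1524 TPM against 95.1, 156 and 71.5 TPM in control clones 9 to 11. All 3 libraries were far above the control clones, a log2 change of 3.57 (SE 0.37, adjusted p = 0.00418 by limma), which lost the call against all 11 control clones (log2 change 3.77, adjusted p = 0.133). Sgk1 also varied among control clones 1 to 5, at 828.95, 127, 834, 111 and 36.3 TPM. In the double-labelled libraries it was at 119, 148 and 211 TPM against 18.9, 29.0 and 11.8 TPM, again with no overlap (log2 change 2.98, adjusted p = 0.0568).

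The chaperone genes of that list stayed near the control level in the triple-labelled libraries: Hspa4, Hsph1 and Hspb1 changed by 0.00, 0.09 and 0.13 on the log2 scale. Hspa1b was at 112 to 137 TPM against 86.0 to 103 TPM (log2 change 0.36, adjusted p = 0.0946). Its near-identical copy Hspa1a was at 0 to 0.710 TPM over the 22 libraries, so reads may be split unevenly between that pair. Sord, which encodes the sorbitol dehydrogenase that uses the product of aldose reductase, had a mean of 16.2 TPM ± 10.5 (SD, n = 3) against 5.02 TPM ± 1.15 (SD, n = 3), with 1 of the 3 libraries at the control level (adjusted p = 0.231). The betaine transporter gene Slc6a12 was at 0 to 1.90 TPM and the urea transporter gene Slc14a2 at 0 to 0.490 TPM in all 22 libraries, so these classical tonicity genes were barely detected in any group.

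Of 13 genes for regulators and partners of NFAT5, all were tested, 2 rose in the triple-labelled libraries and none fell (background 3.91% upward and 5.26% downward). Fyn, a Src-family kinase, was at 22.4, 15.4 and 13.0 TPM against 5.12, 6.20 and 5.63 TPM (log2 change 1.40, adjusted p = 0.0127). Mapk14, a stress-activated MAP kinase gene, was at 124, 144 and 154 TPM against 102, 102 and 101 TPM (log2 change 0.45, adjusted p = 0.0372). Both genes were higher in all 3 libraries. The Fyn call was lost without control clone 9 or 11 (adjusted p = 0.0699 and 0.0619), and the Mapk14 call without any of the control clones or without triple-labelled replicate 2 or 3 (adjusted p from 0.102 to 0.134). The median gene of chromosome 17, on which Mapk14 lies, was 0.26, 0.19 and 0.18 above the control mean in the 3 libraries, and Mapk14 0.28, 0.49 and 0.59. That part was not tested. Ddx5, Ddx17, Dhx9 and Parp1, RNA helicase and chromatin cofactor genes of the list, had log2 changes from -0.26 to -0.14, none of which passed. Ddx5 was lower without overlap here, and Dhx9 was so under all 3 labels (background in either direction 1.3%, 19% and 34.6%). The log2 changes of Dhx9 were -0.48, -0.29 and -0.26 (adjusted p = 0.555, 0.701 and 0.260 by limma).

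Of 24 genes around calcineurin and NFAT transport, 20 were tested, 1 rose and 2 fell in the triple-labelled libraries (background 3.91% upward and 5.26% downward). Calm2, 1 of 3 calmodulin genes, was at 1803, 1775 and 1660.3 TPM against 1309, 1455 and 1212 TPM (log2 change 0.40, adjusted p = 0.0456). Chp1, which encodes a calcineurin B-like protein that can inhibit calcineurin, was at 53.8, 68.0 and 71.4 TPM against 133, 101 and 136 TPM (log2 change -0.92, adjusted p = 0.0190). Xpo1, the nuclear export receptor gene, was at 109.9, 113 and 119 TPM against 163, 168 and 147 TPM (log2 change -0.48, adjusted p = 0.0204). The groups of all 3 genes were apart, yet each call was lost when single libraries were left out: control clone 9 or 11 or triple-labelled replicate 2 for Chp1, and any control clone or triple-labelled replicate 2 or 3 for Calm2 and Xpo1, with adjusted p-values from 0.0527 to 0.160. Calm2 lies on chromosome 17, whose shift is given above, and it also lost the call with quantile normalization (adjusted p = 0.0790 by limma). The call was lost too in a limma fit over all 22 libraries with 1 spread shared by all groups (adjusted p = 0.593). Against all 11 control clones the value of Xpo1 was 0.49.

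The other catalytic calcineurin genes, Ppp3cb and Ppp3cc, both lie on chromosome 14. Ppp3cb was at -0.19, -0.90 and -0.75 and Ppp3cc at 0.09, -0.99 and -0.85 on the log2 scale in triple-labelled replicates 1, 2 and 3, beside -0.04, -0.58 and -0.56 for the median gene of the chromosome. In the double-labelled libraries Ppp3cb was at 0.16, -1.09 and -1.50 and Ppp3cc at -0.13, -1.14 and 0.09, beside -0.06, -0.57 and -0.12. In run 3 neither passed the test (adjusted p = 0.119 and 0.232 by limma). The regulatory subunit gene Ppp3r1 and the calcineurin inhibitor gene Rcan1, itself a target of calcineurin signalling, had log2 changes of -0.01 and -0.03. No gene of the 3 lists passed in ATF1-KO or in the double-labelled libraries, with unadjusted p-values under 0.05 for 1, 1 and 0 genes of the osmotic, partner and calcineurin lists in ATF1-KO (background 7.61%), and for 2, 0 and 2 in the double-labelled libraries (background 9.53%). In the triple-labelled libraries the list medians were 0.13, -0.08 and -0.04, beside -0.05 over all genes.

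**Figure D5:**
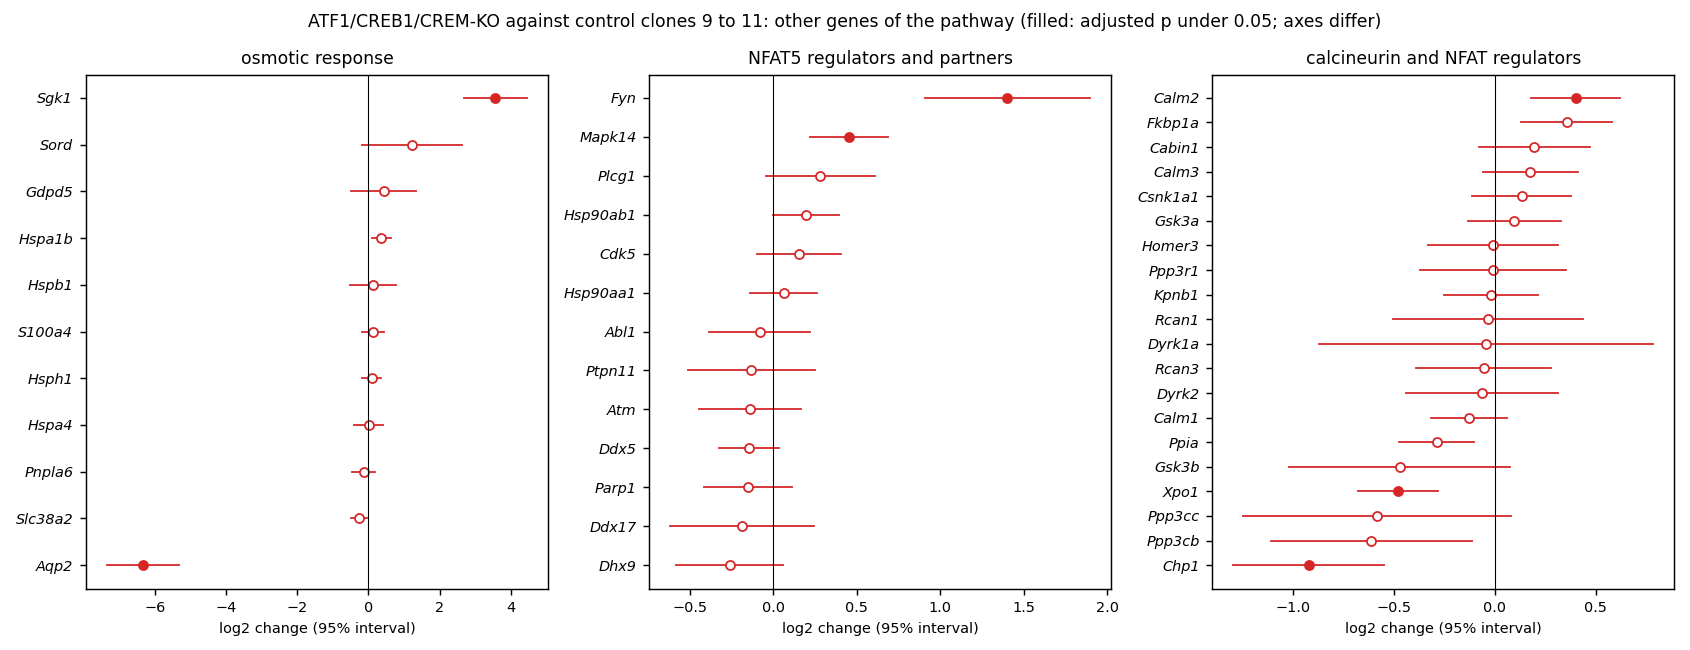
Log2 change in the triple-labelled libraries against control clones 9 to 11 (horizontal axes, which differ between panels) for the tested genes of the 3 lists; points are limma estimates, lines are 95% intervals, and filled points have an adjusted p under 0.05. Sgk1 (3.57) and Aqp2 (-6.34) stand far from 0, and most other genes lie near it.

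The genes whose pattern was most like that of Nfat5 were sought over the 22 libraries, after subtraction of each run's control mean on the log2 scale, among 10496 genes that averaged 5 TPM or more. They were 2310022A10Rik (Pearson r = 0.93), Dennd1a (0.91), Rttn (0.88) and Stk11 (0.87). All 22 points of this description share their library with the other gene, and double-labelled replicate 3, where Nfat5 was lowest, weighed on it: without that library the values were 0.84, 0.80, 0.68 and 0.65. Of the NFAT5 targets, Slc5a3 was the nearest at 0.77 (the rank 53), and 0.57 without that library. Akr1b3 was at -0.70, which shrank to -0.24 without it, so the inverse relation of Nfat5 and Akr1b3 rested in large part on 1 library. For Aqp2 the value was -0.18.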

How the data were processed

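Total RNA of the 22 libraries was made into cDNA with a SMARTer V4 kit, tagmented with Nextera XT and sequenced in pairs, per the labels' protocols, with no marking of strand. STAR and RSEM are named in the submitters' processing notes, and the genome build and annotation are not given in the sources used here. The deposited values are TPM per gene, made by the authors, which scale each library to one total and correct for transcript length, so a few abundant genes can lower all others and the depth is unknown. The 10 genes and all lists were chosen with earlier results of these data known. Genes averaging 1 TPM or more in a comparison were tested with limma 3.58.1 (R 4.3.3, lmFit and eBayes with trend) on log2(TPM + 1), which understates changes of low genes, adjusted by Benjamini-Hochberg across every tested gene, with a threshold of 0.05. The difference between labels came from 1 fit over all 22 libraries with 1 spread shared by all groups. The double-labelled libraries varied more than the others, so intervals and p-values of that difference may be too small. Called genes of the lists, at most 10 per list and comparison, and the 4 genes most like Nfat5 were named, with the 10 genes and Aqp2 always. GENCODE M21 gave chromosomes and overlaps for 52081 of 55414 identifiers; 1399 genes have no name in the table. Chromosome medians use genes averaging 5 TPM or more and are not corrected for the median of all genes in a library. The tests were tried on simulated data first. Alternatives were a pseudocount of 0.1, a minimum of 5 TPM or none, and median-ratio or quantile scaling. Others were all 11 control clones, a replicate block and each library left out. A further fit took all 22 libraries, kept the own-run differences and shared 1 spread over all groups.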

Additional observations from a re-analysis of the deposited data

Results flagged for a closer look

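Akr1b3 in ATF1-KO replicate 4 was at 283.62 TPM, far from the other 4 ATF1-KO libraries, which lay between 148 and 181 TPM. It was 1 of 34 groups of libraries and genes checked for such a gap, and chance alone gives about 1 in 20 (groups of 3 libraries were too small to check). The change of Aqp2 in the triple-labelled libraries differed from that in the double-labelled ones by -5.98 on the log2 scale (limma, adjusted p = 9.38e-06). It kept its call in all 12 fits that left out 1 library, with values from -6.51 to -5.55.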

How the results depend on the processing

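Among 744 alternative values of single genes, 671 kept their direction and side of the threshold, 35 changed sign with no call in either fit, 31 lost the call, 6 gained one and 1 reversed. Of the 436 for the 10 genes against control clones, 402 kept both, 26 changed sign with no call, 6 gained a call and 2 lost one. The reversed value was Xpo1 in the triple-labelled libraries, at 0.49 against all 11 control clones, which include run 2. That comparison also gave calls to Slc5a3, Slc6a6, Nfatc2, Nfatc3 and Ppp3ca in the double-labelled libraries (adjusted p = 0.0446 for each in limma) that own-run control clones did not give. The count of changed genes in ATF1-KO was 0 in all settings except without control clone 4, a range of 0 to 1 over 10 fits. In the double-labelled libraries the 9 became 0 with no filter on low values, 18 with median-ratio scaling and 4260 against all 11 control clones. The count was 0 to 60 with 1 library left out, and 609 in the fit over all 22 libraries. That fit kept the own-run differences and shared 1 spread over all groups. In the triple-labelled libraries the 1216 became 710 with no filter, 137 against all 11 control clones and 185 to 3317 with 1 library left out. The difference count of 25 became 16 with log2(TPM + 0.1), with median-ratio scaling and with quantile normalization, and 7 to 59 with 1 library left out. The cause of these shifts was not tested. With the replicate block, ATF1-KO still gave 0 genes; same-numbered libraries correlated from -0.10 to 0.08, and 3 of 10 matched their own number best, so they share only a number. No paired analysis was possible in runs 2 and 3 because their groups share no replicate numbers. Depth is unknown, so it cannot be said how much of the spread of Nfatc4, Nfatc1 and Slc5a3 in run 2 is counting error.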
